A study of Mus musculus with 44 samples.

Results

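CTCF peaks were examined at 10 genes of the retinoic acid pathway, the receptors *Rara*, *Rarb*, *Rarg*, *Rxra*, *Rxrb* and *Rxrg*, the enzymes *Aldh1a2*, *Cyp26a1* and *Cyp26b1*, and the binding protein *Crabp2*. Of the 59698 CTCF peaks listed for *Setdb1* KO ESCs, 54 had their summit in or within 20 kb of these genes, and of the 44241 peaks listed for WT ESCs, 36 did. The 10 genes were selected on the measured peaks, *Rara* for its number of peaks listed in *Setdb1* KO cells only, so counts of such peaks are given below as a description and were not tested. *Setdb1* KO ESCs were TT2 (C57BL/6/CBA F1) cells in which *Setdb1*, which encodes an H3K9 methyltransferase, was conditionally deleted by 800 nM 4-OHT for 4 days, with harvest on day 6. WT ESCs were TT2 cells of the genotype WT, and the labels do not say whether they received 4-OHT. The methods name 1 clone of this line (33#6), so the values describe that clone. Chromatin was crosslinked and immunoprecipitated with a CTCF antibody (Active Motif). A single deposited peak list per genotype was analysed, so the spread between replicates is unknown and the genotypes were not tested against each other. Peak lists hold no expression values with which the labelled cell type could be checked.

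Retinoic acid is made from retinaldehyde by ALDH1A enzymes and is cleared by enzymes of the CYP26 family. It binds receptors of the RAR family, which pair with RXR receptors on DNA, release corepressors and recruit coactivators at target genes. In ESCs, retinoic acid is widely used to drive exit from pluripotency, and CTCF, an architectural protein with zinc fingers, helps to set which enhancers such genes contact. The comparison asked where CTCF peaks at these genes were present with and without *Setdb1*.

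Sequence is shown first, because several KO-only peaks shared it. A KO-only peak is a *Setdb1* KO peak that no WT peak overlapped by 1 bp, and a shared peak is one that did overlap a WT peak. Each run printed here is the best match to a CTCF matrix within 50 bp of a summit, read 5′ to 3′ on the strand of the match in GRCm38 (mm10), with the 14 core bases in capitals and 10 bases on each side in lower case. *Rara* lies on chr11:98927818-98974942 on the + strand, and 8 of its 14 peaks had a match, 4 of them KO-only. The KO-only peak upstream in *Cdc6*, the KO-only peak 4.38 kb into *Rara*, and the KO-only peaks 7.25 kb and 49.2 kb from the *Rara* start read:
Rara KO-only -18.0 kb, chr11:98909840-98909853 (-): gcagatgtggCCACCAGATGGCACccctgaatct
Rara KO-only 4.38 kb, chr11:98932163-98932176 (-): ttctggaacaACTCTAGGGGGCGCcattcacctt
Rara KO-only 7.25 kb, chr11:98935058-98935071 (+): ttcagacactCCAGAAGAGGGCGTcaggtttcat
Rara KO-only 49.2 kb, chr11:98977064-98977077 (-): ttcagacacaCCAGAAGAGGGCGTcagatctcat

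The 4 shared *Rara* peaks with a match are shown for contrast:
Rara shared -11.3 kb, chr11:98916562-98916575 (+): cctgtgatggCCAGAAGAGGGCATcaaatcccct
Rara shared 26.6 kb, chr11:98954443-98954456 (+): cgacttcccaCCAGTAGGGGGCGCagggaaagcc
Rara shared 44.6 kb, chr11:98972405-98972418 (-): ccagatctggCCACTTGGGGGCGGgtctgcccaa
Rara shared 47.7 kb, chr11:98975543-98975556 (+): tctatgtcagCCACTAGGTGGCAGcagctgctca

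Outside *Rara*, 4 of 12 KO-only peaks had a match, at *Rxrb*, *Rxrg* and *Aldh1a2*, and all 4 are shown:
Rxrb KO-only, chr17:34027786-34027799 (-): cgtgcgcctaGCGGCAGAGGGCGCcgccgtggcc
Rxrg KO-only, chr1:167649909-167649922 (+): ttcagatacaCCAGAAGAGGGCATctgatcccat
Aldh1a2 KO-only -10.1 kb, chr9:71205659-71205672 (-): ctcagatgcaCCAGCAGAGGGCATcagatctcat
Aldh1a2 KO-only promoter, chr9:71215312-71215325 (+): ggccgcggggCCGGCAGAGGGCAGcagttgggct

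Of these 8 KO-only runs, 4 read alike in the core and its flanks, those at *Rara* 7.25 kb and 49.2 kb, at *Rxrg* and at *Aldh1a2* -10.1 kb, and the *Rara* ones had the same 14 core bases. Over 100 bp on each side of the summit, the 6 pairings of these 4 windows aligned over 161 to 184 bp at 78.9% to 86.6% identity. They were also the 4 KO-only peaks of the 10 genes with more than 50% of the 101 bp around the summit in repeat-masked letters of the genome. That is 20.0% of the 20 KO-only peaks of these genes (Wilson 95% interval 8.07% to 41.6%), beside 41.4% of all KO-only peaks. The interval includes the share of the whole list. Each of the 4 aligned over at least 50 bp to between 6404 and 8784 of the 59674 windows of *Setdb1* KO peaks, so their sequence recurs throughout the CTCF list. Of the windows alike to them, 48.8% to 55.2% were KO-only, beside 28.8% of the whole *Setdb1* KO list. Among all *Setdb1* KO peaks with more than 50% masked around the summit, 7117 of 17600 were KO-only. The other 16 KO-only peaks had no such family, with at most 4 windows alike. The shared *Rara* peak at -11.3 kb had the same 14 core bases as the *Rxrg* copy, and its window was alike to 3184 others, of which 23.7% were KO-only. The window of a shared *Rarg* peak (chr15:102265514-102265942) was alike to 841 others, 202 of them KO-only. Whether the 4 copies align to shared peaks of the 10 genes was not examined. Their sequence is therefore not shown to be particular to KO-only peaks of these genes. No repeat annotation was used here, so the family is not named. CTCF is known to bind copies of mouse SINE B2 elements. The authors kept only reads with a single best position, which are fewer where copies are nearly identical.

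Of the 54 *Setdb1* KO peaks, 20 (37.0%, Wilson 95% interval 25.4% to 50.4%) were KO-only and 34 were shared. Over the whole list 28.8% of *Setdb1* KO peaks were KO-only. Only 1 of the 36 WT peaks was WT-only, beside 3.22% of the whole WT list. KO-only peaks were found at 7 of the 10 genes, and 52.4% of 21938 protein-coding genes had a KO-only summit within 20 kb. The receptors held 17 KO-only peaks of 38 (44.7%, 30.1% to 60.3%) and the enzymes and binding protein 3 of 16 (18.8%, 6.59% to 43.0%). Of the 17, 8 were at *Rara*, which was picked for this count. The other RAR genes held 5 of 12 and the RXR genes 4 of 12.

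*Rara*, which encodes retinoic acid receptor alpha, had the most peaks and the most KO-only peaks of the 10 genes: 8 of 14 (57.1%, 32.6% to 78.6%), against 12 of 40 (30.0%, 18.1% to 45.4%) at the other 9 together. All 7 WT peaks at *Rara* overlapped a *Setdb1* KO peak. In the 1 Mb on each side of its window, 32 of 124 *Setdb1* KO peaks (25.8%) were KO-only, close to the whole list. The window of 20 kb held the *Cdc6* peak 18.0 kb from *Rara* and left out a KO-only peak of 15 fragments 20.5 kb past it (chr11:98995269-98995611). A KO-only peak of 20 fragments lay 45.7 kb past it (chr11:99020523-99020822).

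**Figure D1:**
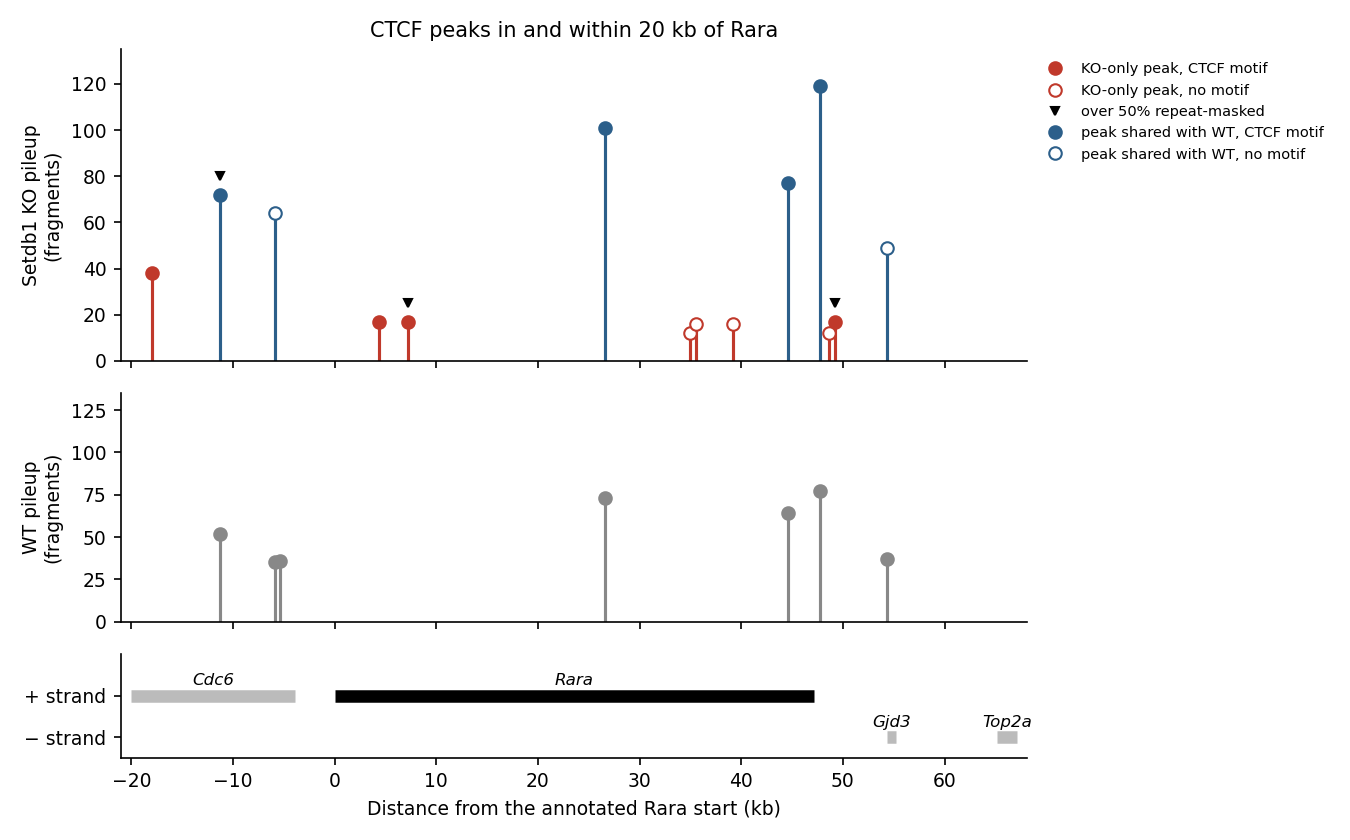
CTCF peaks in and within 20 kb of *Rara*, as the pileup (fragments over the summit) in *Setdb1* KO ESCs (top) and in WT ESCs (middle) against the distance from the annotated *Rara* start in kb, with protein-coding genes below. The 8 KO-only peaks (red) have pileups of 12 to 38 and the 6 shared peaks (blue) 49 to 119, with open points where no CTCF motif was called and black triangles over repeat-masked summits.

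The KO-only peaks of *Rara* were weak beside its shared peaks. The pileup is the number of extended fragments over the summit. KO-only pileups were 38, 17, 17, 12, 16, 16, 12 and 17 fragments in order along the chromosome, against 49 to 119 for the 6 shared peaks, so the 2 kinds did not overlap. In the WT list the lowest pileup was 9. With the local background of the *Setdb1* KO peak, scaled to the WT library, a WT peak at these sites would have needed between 9 and 12 fragments to be listed. The *Setdb1* KO pileup was 1.00 to 3.17 times that number at *Rara*, with a median of 1.74, and was at most 2 times it at 7 of the 8 sites. The same share over all KO-only peaks was not computed. The WT pileup at a KO-only site is not in the lists, and is not known to be 0.

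The strongest KO-only peak of *Rara* lay on chr11:98909538-98909995, in an intron of *Cdc6*, a gene for a replication licensing factor, 18.0 kb upstream of the *Rara* start and 1.70 kb from the start of a *Cdc6* transcript. Its pileup was 38 and its fold enrichment over background 8.02. It carried the motif printed above 1 bp from the summit, in sequence that was not repeat-masked. It was the only KO-only peak of *Rara* with a pileup over 20.

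Within *Rara*, 5 KO-only peaks lay in introns. Those on chr11:98932043-98932282 and chr11:98934894-98935249, each with a pileup of 17, were the 2 with a motif, and the peak on chr11:98934894-98935249 is one of the repeat copies. The 3 others, on chr11:98962678-98962871 with a pileup of 12, on chr11:98963047-98963540 with 16 and on chr11:98966876-98967165 with 16, had no motif call and lay between 5408 and 8937 bp from the nearest shared summit. The first was listed over 194 bp, close to the fragment size of 193 bp, and had a fold enrichment of 4.02.

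Past the 3′ end of *Rara*, in sequence outside annotated genes, were the KO-only peaks on chr11:98976366-98976559, with a pileup of 12 and no motif, and on chr11:98976930-98977190, with 17 and the repeat copy. They lay 882 bp and 1528 bp from the summit of the strongest *Rara* peak, a shared one. The peak with a pileup of 12 had a -log10 q of 1.66, the lowest of the 14.

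Shared peaks of *Rara* were higher in *Setdb1* KO cells by about as much as shared peaks of the genome. The peak just past its 3′ end (chr11:98975277-98975941) had a pileup of 119 in *Setdb1* KO and 77 in WT cells, a ratio of 1.55 (exact 95% interval 1.15 to 2.09). The intronic peak 26.6 kb from the start (chr11:98954004-98954818) had 101 in *Setdb1* KO and 73 in WT cells, a ratio of 1.38 (1.01 to 1.90). These were the 2 *Rara* sites whose interval lay above 1. The other intronic peak, at 44.6 kb (chr11:98972027-98972836), had 77 in *Setdb1* KO and 64 in WT cells, a ratio of 1.20 (0.852 to 1.70). In a *Cdc6* intron, chr11:98916272-98916826 had 72 in *Setdb1* KO and 52 in WT cells (1.38, 0.956 to 2.02), and at the promoter of *Gjd3*, a gap junction gene, chr11:98981949-98982447 had 49 in *Setdb1* KO and 37 in WT cells (1.32, 0.847 to 2.09).

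The sixth shared *Rara* peak (chr11:98921725-98922638, over a *Cdc6* exon) had a pileup of 64 and overlapped WT peaks of 35 and 36 fragments, with summits 29 bp and 523 bp from its own, so no single ratio was taken. Over the 5 sites with a single peak in each list, the median ratio was 1.38 and the summed pileups 418 in *Setdb1* KO and 303 in WT cells, a ratio of 1.38 (1.19 to 1.60).

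*Rarb*, the receptor gene that retinoic acid itself induces in many cells, spans 388 kb and had 2 KO-only peaks of 5. One lay in an intron 213 kb from the start (chr14:16605663-16605867, pileup 19) and the other upstream, 15.2 kb from it (chr14:16834315-16834540, pileup 16). Neither had a motif, and the nearest shared summits were 136080 bp and 92538 bp away. The site with the highest ratio and highest pileup had 70 in *Setdb1* KO and 45 in WT cells, a ratio of 1.56 (1.05 to 2.32), and overlapped an exon of *Top2b*, which extends into *Rarb*. The lowest *Rarb* ratio was 1.07 (0.482 to 2.40), from pileups of 15 in *Setdb1* KO and 14 in WT cells.

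*Rarg*, the third RAR gene, had 3 KO-only peaks of 7. The nearest to its promoter lay 1.52 kb upstream of the start (chr15:102258920-102259182, pileup 20), another in an intron (chr15:102248802-102249014, pileup 13), and the strongest in an intron of the integrin gene *Itgb7* downstream (chr15:102222421-102222738, pileup 25). No motif was called in any of them. The shared sites of *Rarg* spanned the widest range of any member. The site 17.0 kb upstream (chr15:102274323-102274681) had 47 in *Setdb1* KO and 28 in WT cells, the highest ratio of the 10 genes at 1.68 (1.03 to 2.78). The intronic site with the highest *Rarg* pileup (chr15:102239005-102239573) had 64 in *Setdb1* KO and 69 in WT cells, a ratio of 0.928 (0.650 to 1.32). The motif of the site with the highest ratio, in sequence of which 55.4% was repeat-masked, is printed because its 14 core bases are those of the *Rxrg* repeat copy:
Rarg shared -17.0 kb, chr15:102274509-102274522 (-): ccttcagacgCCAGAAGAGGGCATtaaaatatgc

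Its window was alike to 59 others, of which 23.7% were KO-only.

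The RXR genes encode the obligate partners of the RARs, which also pair with thyroid hormone, vitamin D and PPAR receptors. They had 4 KO-only peaks of 12 in all. At *Rxra*, 2 of 6 were KO-only. One lay 321 bp from the start of an annotated *Rxra* transcript inside the gene (chr2:27740433-27740634, pileup 19), with no motif called. The other lay downstream (chr2:27770047-27770377, pileup 20, no motif), 149 bp from the WT-only peak of the 10 genes (chr2:27770527-27770818, WT pileup 16, fold enrichment 3.74), so that each genotype listed a weak peak of its own at neighbouring positions. The strongest *Rxra* peak (chr2:27771805-27772415) had 108 in *Setdb1* KO and 71 in WT cells, with the highest ratio of *Rxra* at 1.52 (1.12 to 2.08), and the lowest was 1.10 (0.580 to 2.08), from 23 in *Setdb1* KO and 21 in WT cells.

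*Rxrb* had only 2 peaks. The KO-only one (chr17:34027640-34027885, pileup 14) lay 27 bp from the start of *H2-Ke6*, a dehydrogenase gene, and 4.06 kb upstream of the *Rxrb* start, with the motif printed above, 38 bp from the summit. The shared one, 436 bp from the start of an *Rxrb* transcript (chr17:34034036-34034710), had 88 in *Setdb1* KO and 64 in WT cells, a ratio of 1.38 (0.985 to 1.93). *Rxrg* had 1 KO-only peak of 4, downstream of the gene (chr1:167649815-167650029, pileup 14), which is one of the repeat copies. Its shared sites had ratios between 1.16 (80 in *Setdb1* KO and 69 in WT cells, 0.830 to 1.62) and 1.51 (80 in *Setdb1* KO and 53 in WT cells, 1.05 to 2.18).

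The motifs of the *Rxra*, *Rxrb* and *Rxrg* shared sites with the highest ratio are printed for comparison with the KO-only ones:
Rxra shared, chr2:27772073-27772086 (+): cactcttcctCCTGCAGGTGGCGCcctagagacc
Rxrb shared, chr17:34034332-34034345 (+): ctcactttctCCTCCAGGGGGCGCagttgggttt
Rxrg shared, chr1:167638249-167638262 (-): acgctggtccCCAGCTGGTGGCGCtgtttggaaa

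**Figure D2:**
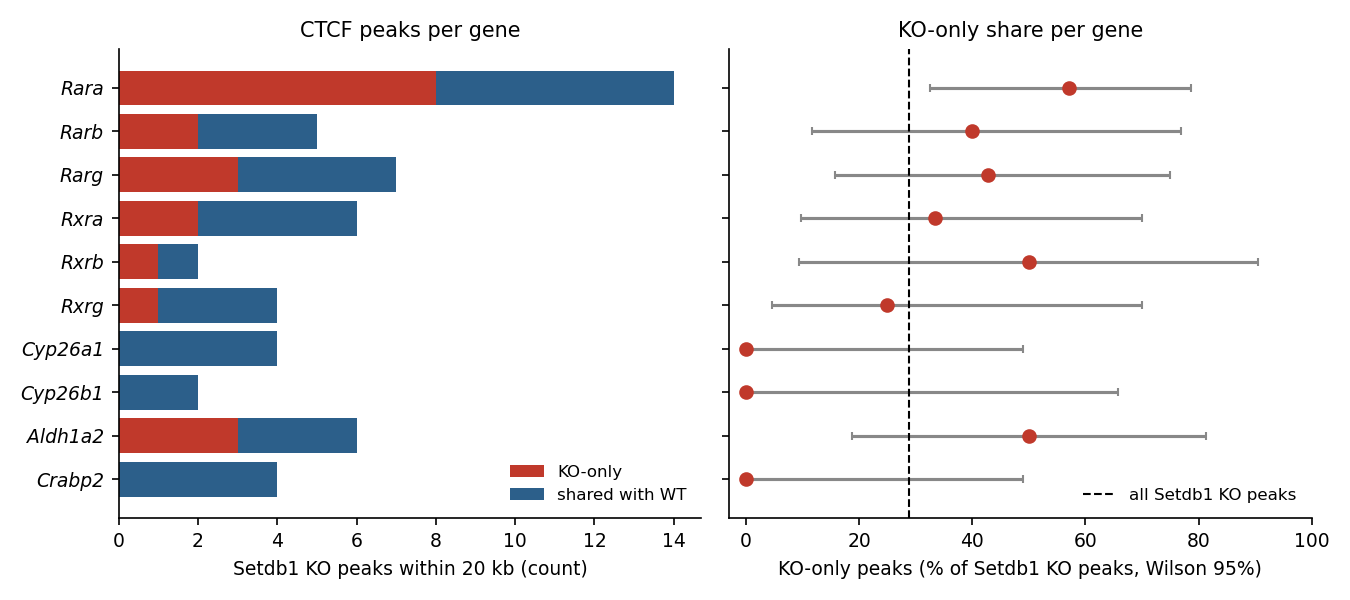
Left, number of *Setdb1* KO peaks within 20 kb of each gene, KO-only in red and shared with WT in blue. Right, the KO-only share with its Wilson 95% interval, and as a dashed line the 28.8% of all *Setdb1* KO peaks. *Rara* has 8 of 14, and *Cyp26a1*, *Cyp26b1* and *Crabp2* have 0 of 4, 0 of 2 and 0 of 4.

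*Aldh1a2*, whose enzyme makes most of the retinoic acid of the early embryo, had 3 KO-only peaks of 6. The strongest KO-only peak at the promoter of a member lay here, 441 bp upstream of the *Aldh1a2* start (chr9:71215195-71215534), with a pileup of 31 and a fold enrichment of 9.66, the highest of the 20 KO-only peaks. That pileup was 3.44 times the WT limit, again taken from the *Setdb1* KO background scaled to the WT library. The WT background at this site is not known. At shared *Aldh1a2* sites the median *Setdb1* KO to WT background ratio was 0.736. The sequence of the promoter peak over 75 bp on each side of the summit (chr9:71215273-71215423, + strand, the strand of the gene) is printed because the peak stands at the start of the gene. The motif core is in capitals and holds a CpG at position 2, and the 151 bases have a GC content of 68.2% and 10 CpG dinucleotides:
Aldh1a2 KO-only promoter: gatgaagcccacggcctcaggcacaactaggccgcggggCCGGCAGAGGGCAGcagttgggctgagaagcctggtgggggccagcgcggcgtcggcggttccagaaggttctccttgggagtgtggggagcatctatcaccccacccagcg

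The other KO-only peaks of *Aldh1a2* were the repeat copy 10.1 kb upstream (chr9:71205549-71205795, pileup 23), in an intron of *Gm32511*, and an intronic peak of 12 fragments with no motif (chr9:71274342-71274609). A shared peak between the promoter and the repeat copy, 4.70 kb upstream of the start (chr9:71210878-71211467), had 105 in *Setdb1* KO and 71 in WT cells, the highest *Aldh1a2* ratio at 1.48 (1.08 to 2.03). The lowest, 19.9 kb past the 3′ end, was 0.963 (0.540 to 1.71), from 26 in *Setdb1* KO and 27 in WT cells.

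*Cyp26a1* and *Cyp26b1*, whose enzymes oxidise retinoic acid, and *Crabp2*, whose protein carries it to the nucleus, had no KO-only peak: 0 of 4, 0 of 2 and 0 of 4. With so few peaks the Wilson intervals reach 49.0%, 65.8% and 49.0%. A KO-only peak of 26 fragments lay just outside the *Crabp2* window, 22.0 kb upstream of the gene (chr3:87926475-87926769). In the 1 Mb on each side of the windows of *Cyp26a1*, *Cyp26b1* and *Crabp2*, 29.6%, 31.1% and 39.3% of *Setdb1* KO peaks were KO-only. *Cyp26a1* had the lowest median ratio of the 10 genes, 1.06 over 4 sites, from 0.917 (22 in *Setdb1* KO and 24 in WT cells, 0.490 to 1.71) in an intron of *Cyp26c1* to 1.37 (93 in *Setdb1* KO and 68 in WT cells, 0.990 to 1.90) past its 3′ end, each interval including 1. At *Cyp26b1* both peaks were intronic, with ratios of 1.49 (67 in *Setdb1* KO and 45 in WT cells, 1.01 to 2.22) and 1.27 (61 in *Setdb1* KO and 48 in WT cells, 0.856 to 1.90). At *Crabp2* the 4 ratios lay between 1.34 (98 in *Setdb1* KO and 73 in WT cells, 0.981 to 1.84), at the *Nes* promoter, and 1.46 (118 in *Setdb1* KO and 81 in WT cells, 1.09 to 1.96), in an intron of *Isg20l2*. The motifs at the sites with the highest ratio of *Aldh1a2*, *Cyp26a1*, *Cyp26b1* and *Crabp2* read:
Aldh1a2 shared, chr9:71211064-71211077 (+): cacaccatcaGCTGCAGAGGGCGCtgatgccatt
Cyp26a1 shared, chr19:37704097-37704110 (+): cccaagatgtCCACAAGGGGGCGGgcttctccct
Cyp26b1 shared, chr6:84579113-84579126 (-): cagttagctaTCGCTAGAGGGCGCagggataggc
Crabp2 shared, chr3:87935900-87935913 (+): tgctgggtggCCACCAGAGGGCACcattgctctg

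Over the 33 shared sites of the 10 genes with a single peak in each list, the *Setdb1* KO to WT pileup ratio ranged from 0.917 to 1.68 with a median of 1.34, and 30 were above 1. Over 41876 such sites of the genome the median was 1.36, with quartiles of 1.17 and 1.61. The exact interval lay above 1 at 9 of the 33 sites, beside 31.5% of all such sites. The summed pileups were 2120 in *Setdb1* KO and 1595 in WT cells, a ratio of 1.33 (1.24 to 1.42). The median was 1.38 at *Rara* and 1.34 at the other 9 genes. The tag numbers inferred from the solved backgrounds were 27.6 M for *Setdb1* KO and 27.4 M for WT cells. With 1 library each, a difference between genotypes cannot be told apart from one between libraries.

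**Figure D3:**
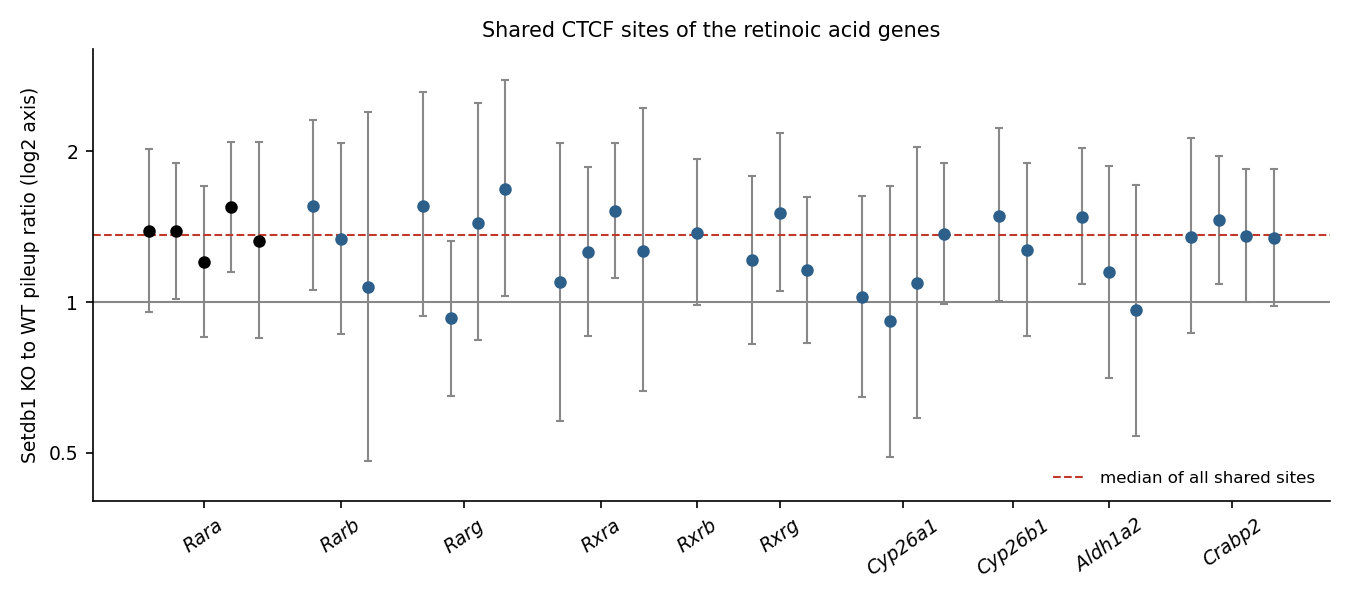
*Setdb1* KO to WT pileup ratio (log2 axis) at the 33 shared sites with 1 peak in each list, by gene and in order of position, with exact 95% intervals for counting error. The dashed line is the genome median of 1.36. The 5 *Rara* sites (black) lie between 1.20 and 1.55, and *Cyp26a1* has the lowest site at 0.917.

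A KO-only call went with low pileup in the genome and at the retinoic acid genes. Of all *Setdb1* KO peaks with a pileup of 8 to 14, 91.2% were KO-only, of those with 15 to 19 fragments 78.7%, with 20 to 29 49.3%, with 30 to 49 13.4%, and with 50 to 99 1.08%. At the 10 genes the counts in these classes were 6 of 6, 8 of 9, 4 of 9, 2 of 8 and 0 of 16, and 0 of 6 with 100 or more. At *Rara*, 7 of its 14 peaks had a pileup under 20, and all 7 were KO-only. At the other 9 genes 8 of 40 did, of which 7 were KO-only. When each list was limited to its 44241 peaks with the highest -log10 q, 1 of 7 *Rara* peaks remained KO-only (14.3%), beside 4 of 31 (12.9%) at the other 9 genes and 11.7% of all peaks. The one that remained was the peak in *Cdc6*.

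**Figure D4:**
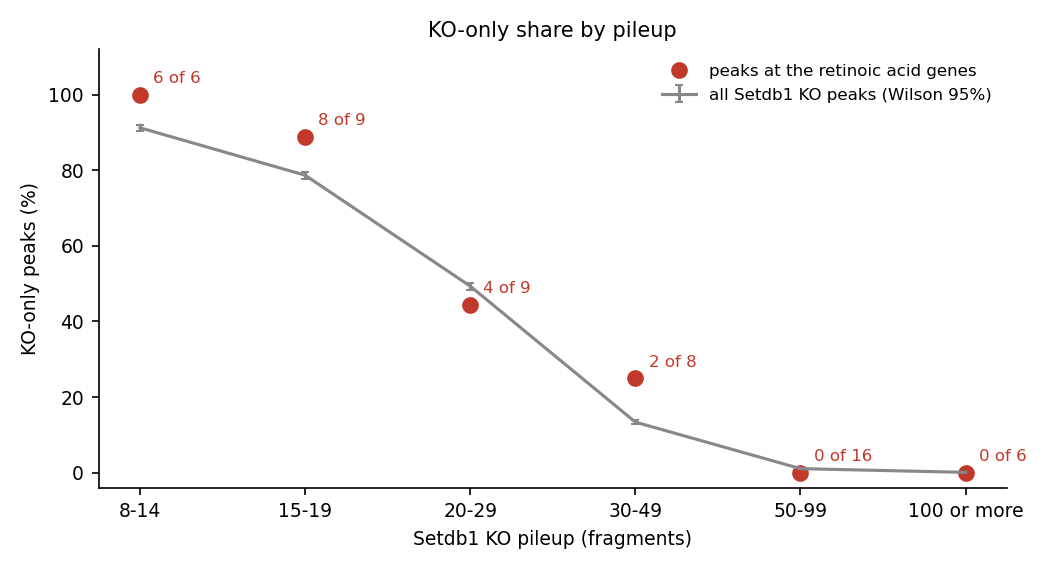
Percent of *Setdb1* KO peaks that were KO-only, by *Setdb1* KO pileup. The grey line is all 59698 peaks with Wilson 95% intervals and red points are the 54 peaks at the retinoic acid genes, with their counts. The share falls with pileup in both, and 0 of 22 peaks with 50 or more fragments were KO-only.

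A CTCF motif was called in 31 of the 54 peaks (57.4%, 44.2% to 69.7%), beside 57.9% of all *Setdb1* KO peaks. By construction the threshold lets 0.999% of windows 1 kb away pass, so that share is not an independent rate of false calls. The matrix was built on 1000 of the shared peaks of the whole list, so the shared shares are not independent of it. The motif was called in 8 of 20 KO-only peaks (40.0%, 21.9% to 61.3%), against 23 of 34 shared peaks (67.6%, 50.8% to 80.9%). In the whole list the shares were 36.9% of KO-only and 66.4% of shared peaks, which also differ in pileup, at these genes with a median of 17 fragments for KO-only and 63.5 for shared peaks. Within classes of pileup the order over the whole list was the reverse. The motif was called in 19.1% of KO-only and 13.3% of shared peaks with 8 to 14 fragments, in 31.6% of KO-only and 25.5% of shared peaks with 15 to 19, in 45.7% of KO-only and 36.5% of shared peaks with 20 to 29, and in 64.2% of KO-only and 56.0% of shared peaks with 30 to 49. In these 4 classes KO-only peaks thus did not have the lower share. At *Rara* they were 4 of 8 and 4 of 6. Position 12 of the core, counted from its 5′ end, and position 2 are where the motif can hold a CpG, the dinucleotide whose methylation can hinder CTCF. A CpG stood at position 12 in 4 of the 8 KO-only motifs, 3 of them at *Rara*, and in 11 of the 23 shared ones, beside 28.6% and 37.7% in the whole list. A CpG at position 2 was held by the KO-only motifs at the *Aldh1a2* promoter and at *H2-Ke6* near *Rxrb*, and by 3 of the 23 shared motifs, beside 1.18% of KO-only and 4.92% of shared motifs in the whole list. DNA methylation was not analysed here.

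**Figure D5:**
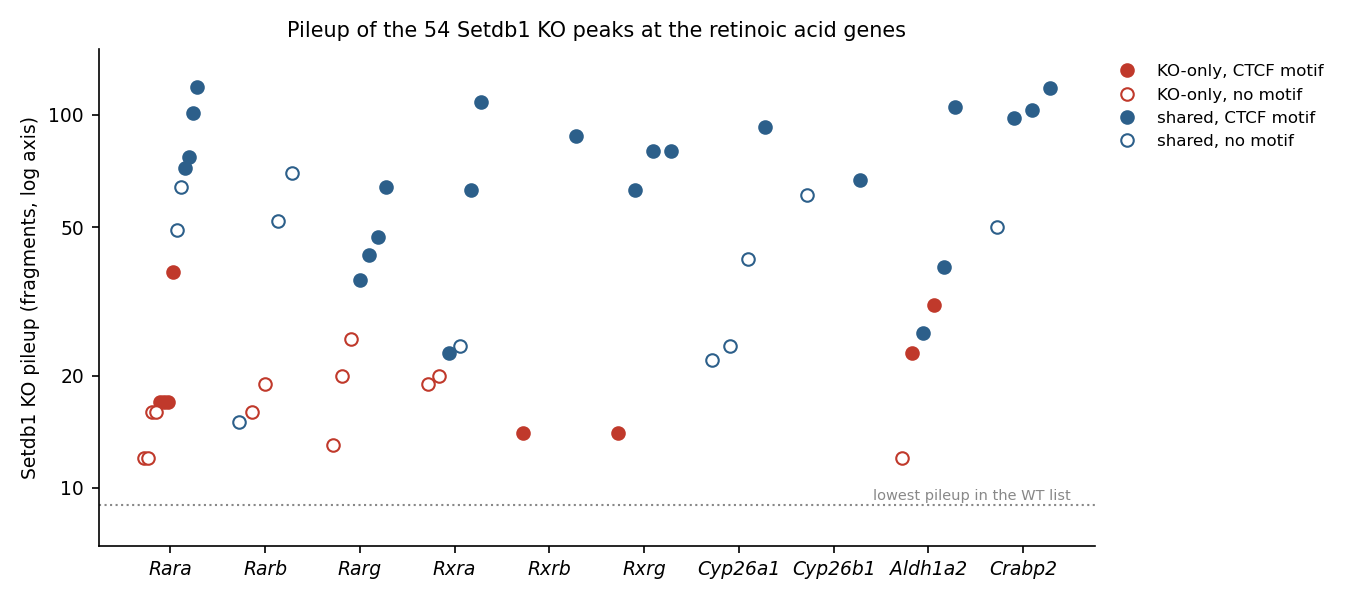
Pileup (fragments, log axis) of each of the 54 *Setdb1* KO peaks, by gene and in rising order within a gene. Red points are KO-only and blue points shared, filled where a CTCF motif was called, and the dotted line marks the lowest pileup in the WT list, 9. No KO-only point lies above 38.

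By place, 11 of the 20 KO-only peaks were in introns, 6 outside annotated genes and 3 at promoters within 1 kb of a transcript start, and 0 were in exons. The promoters were those of *Aldh1a2*, an internal start of *Rxra*, and *H2-Ke6*. Of the 34 shared peaks, 13 were in introns, 13 outside genes, 4 at promoters and 4 over exons. The share of each place over the whole list was not computed. The windows were set around genes, so these counts are a description only. KO-only summits lay at a median of 6734 bp from the nearest shared summit, beside 12789 bp for all KO-only peaks, and 3 of 20 (15.0%) were within 2 kb of one, beside 13.7% of all KO-only peaks.

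Counts like those of *Rara* were uncommon among protein-coding genes. Over the 902 genes with 10 or more *Setdb1* KO peaks within 20 kb, the median KO-only share was 26.7%. Of these 902 genes, 26 (2.88%) had a share of at least that of *Rara*. At least 8 KO-only peaks were found at 43 of 21938 genes, and at 2 of 2093 genes of 0.8 to 1.25 times the length of *Rara*. The 26, 43 and 2 genes each include *Rara* itself, and genes overlapping its window were not left out. *Rara* was picked for this count, so its rank is a description only. By number of shared and KO-only peaks, and then by closeness of the median ratio, the 5 genes most like it were *Dysf*, *Tenm3* and *Bri3*, each with 6 shared and 8 KO-only peaks, and *Arid1b* and *Cog5*, each with 6 and 7. Their median ratios were 1.33, 1.58, 1.21, 1.25 and 1.20, against 1.38 for *Rara*. Length was not used in this ordering, and all 5 genes are much longer than *Rara* (47.1 kb). Their windows are therefore wider, so like counts there are a lower density of peaks.

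The 31 other genes of the pathway that were listed by role had 42 KO-only peaks of 152 (27.6%, 21.1% to 35.2%), close to the 28.8% of the whole list, with a median ratio of 1.32. The 4 peaks of *Cyp26c1* among them are those given above for its neighbour *Cyp26a1*, and without them the count was 42 of 148 (28.4%) and the median ratio 1.33. Of the 31 genes, 18 (58.1%) had a KO-only summit within 20 kb, beside 52.4% of all protein-coding genes. All 6 coregulator genes had a KO-only peak, 16 of 48 peaks in all (33.3%, 21.7% to 47.5%). Of 9 RXR partner genes 7 had one, 19 of 56 peaks (33.9%, 22.9% to 47.0%), with most at *Ppard* (5 of 15) and *Ppara* (4 of 8). Genes of retinoid transport and metabolism had 4 KO-only peaks of 32 (12.5%, 4.97% to 28.1%), at 3 of 11 genes. Of these, 2 lay at *Rdh10*, whose enzyme makes retinaldehyde. Known targets of retinoic acid had 3 of 21 (14.3%, 4.98% to 34.6%), at 2 of 6 genes, with 2 at *Meis1*, where no peak was shared. Coregulator genes span 80.6 to 235 kb and those of transport and metabolism 7.82 to 151 kb, so the windows differed in size.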

How the data were processed

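CTCF ChIP-seq was analysed in *Setdb1* KO and WT ESCs, 1 library each. Bowtie 1.2 was used by the authors for alignment to GRCm38 (mm10), keeping reads with a single best position, then Picard for duplicates and MACS2 2.1.0 for peaks (q 0.05). In the deposited lists, fold enrichment is a ratio of pileup to background, p and q are −log10 values, the score is a rescaled q, and the last column is the offset of the summit, all as deposited by the authors. Pileup and background were solved from fold enrichment and Poisson p for 100% of peaks (tolerance 0.001 on −log10 p). With a genome size of 2.43e9, the solved backgrounds gave estimates of 27.6 M ChIP and 28.5 M input tags for *Setdb1* KO. For WT cells they gave 27.4 M and 30.9 M.

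Intervals are 95%, Wilson for shares and exact Clopper-Pearson for ratios, and cover counting error only. Places came from GENCODE vM21, and sequence with its masking from RefSeq GRCm38.p6. The CTCF matrix (20 bp) was built on 1000 shared peaks, those of highest −log10 q in *Setdb1* KO, and called above the 99th percentile of windows 1 kb to the left of summits. Windows were aligned with BLASTN 2.17.0 (E-value 0.001, 50 bp or more). The scripts ran on Python 3.11.15 with scipy 1.17.1, numpy 2.4.6, pandas 2.3.3 and matplotlib 3.10.9. Solving, overlap and motif calls were tested on simulated data.

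The members, lists and tests were chosen with earlier results of these data known. Peaks named were each *Rara* peak and, elsewhere, each KO-only and WT-only peak and the shared sites of highest and lowest ratio and of highest pileup. Sequences were the motifs of *Rara* peaks, of the strongest KO-only peak and of the shared site of highest ratio. The *Aldh1a2* -10.1 kb motif, the longer *Aldh1a2* sequence and peaks beyond 20 kb were added after their values were seen. Overlap, −log10 q, list length, window, placement, scaling and motif settings were varied. The second CTCF libraries and all other data types were not analysed here.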

Additional observations from a re-analysis of the deposited data

How the results depend on the processing

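No paired analysis was possible because 1 CTCF peak list per genotype was analysed. Keeping the 44241 peaks of highest -log10 q in each list moved the KO-only share to 13.2% over the 10 genes, 14.3% at *Rara* and 12.9% at the other 9, with 11.7% over all peaks, since weak *Setdb1* KO peaks were left out. Under the other 8 settings these shares ranged within their Wilson intervals. WT-only peaks numbered 5 with a reciprocal overlap of 50% or with summits within 100 bp, 2 with lists of equal length, and 0 with -log10 q of at least 5 or in gene bodies only. Dividing *Setdb1* KO pileups by the genome median ratio gave median ratios of 0.987 for the 10 genes and 1.02 for *Rara*, as that scaling does by construction. At the 95th percentile a motif was called in 75.9% of the peaks, and within 100 bp, with a threshold from windows of that length, in 37.0%. At the 95th percentile 11 of 20 KO-only peaks had a motif, beside 9564 of all 17198. Those added were chr11:98962678-98962871 at *Rara*, chr15:102248802-102249014 at *Rarg* and chr2:27740433-27740634 at *Rxra*. Within 100 bp, the KO-only motifs at *Rara* 4.38 kb, *Rxrb* and *Rxrg* were not called. At -log10 q of at least 5, 5 of 11 *Rara* peaks were KO-only. Each value rests on 1 library per genotype, and *Cyp26b1* and *Rxrb* have 2 peaks each. The pileup was at most 2 times the limit of the WT list at 14 of 20 KO-only sites, a share not computed for all KO-only peaks.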
